A study of Mus musculus with 11 samples.

Results

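A set of 74 array probes out of 26512 read lower in every Sorafenib-treated mouse liver than in any vehicle-treated liver, after 14 d of drug as well as after 83 d, and by similar amounts at both times. The set was chosen by the measured levels themselves. A probe belonged to it when its level in each of the 8 Sorafenib arrays lay below its level in each of the 3 vehicle arrays, when the mean of the 14 d Sorafenib arrays and the mean of the long-term arrays each lay 0.5 or more below the vehicle mean, and when these Sorafenib means were less than 0.4 apart. Levels are log2(intensity + 16) after quantile normalization over all arrays, so that a difference of 1 is a 2-fold difference on that scale. The probes make up 0.279% of those on the array. They are given without gene names, because no table that pairs these Illumina identifiers with genes was used here, and the text therefore describes transcripts by their levels and prints only the identifiers of the 2 with the largest differences from vehicle.

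The arrays measured total RNA of whole liver lysates from iAST mice of the strain C57BL6n, aged 12 to 15 weeks per the labels, whose samples are all labelled as tumour liver. The groups were Sorafenib at 60 mg/kg by mouth for 14 d (n = 4), Sorafenib at 60 mg/kg by mouth for 83 d, called long-term (n = 4), and vehicle solution for 14 d (n = 3). No vehicle livers of 83 d were analysed here, so drug and length of treatment both differ between the long-term and the vehicle livers. The labels do not say whether the age is that at the start or at the end of treatment, or whether each array came from a separate mouse, so the spread between arrays may be partly technical. All long-term and all vehicle arrays shared 1 chip with 14 d replicate 4, while 14 d replicates 1 to 3 were on a second chip.

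As background, Sorafenib is an oral inhibitor of several kinases, among them the RAF kinases of the MAPK pathway and the receptors for VEGF and PDGF. The RAF kinases pass growth signals to transcription factors in tumour cells, VEGF receptors keep endothelial cells of tumour vessels alive and dividing, and PDGF receptors act on the stellate cells and pericytes around them. The iAST line is known as an inducible liver cancer model in which the T antigen of a simian virus is switched on in hepatocytes under the albumin promoter. A whole liver lysate mixes tumour cells with hepatocytes, vessel, stellate, bile duct and immune cells, so a lower probe level can stand for fewer cells of a type or for less RNA in each cell, which cannot be told apart here. Without gene names, neither the tissue nor any of these cell types could be checked against its markers.

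The conditions of the choice differed in how many probes they kept. In 476 probes all Sorafenib arrays lay below all vehicle arrays, and in 84 of these both Sorafenib means were 0.5 or more below the vehicle mean. The limit of 0.4 between the Sorafenib means took away 10 of the 84 and left the 74. Without vehicle replicate 2 the rule kept 126 probes, 67 of them among the 74, and without any other single array it kept 65 to 93. The mirrored conditions, with all Sorafenib arrays above all vehicle arrays, were met by 378 probes, and the full mirrored rule kept 23. A further 29 probes met both conditions on the means and had overlapping arrays. Just inside the limits, the smaller of the differences from vehicle was -0.5005 and the widest difference between the Sorafenib means was 0.3792. The nearest probes outside had a smaller difference from vehicle of -0.4999 and Sorafenib means 0.4011 apart, so the limits cut through a continuous range of values.

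**Figure D1:**
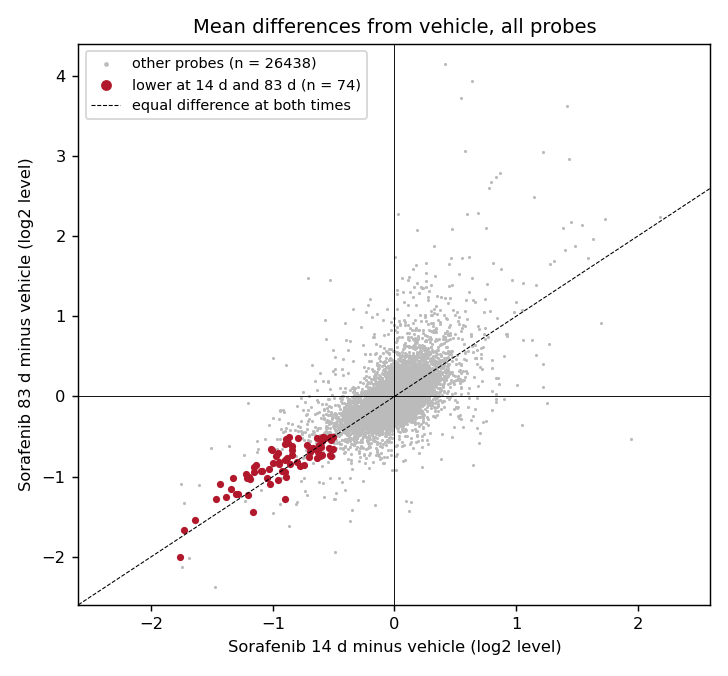
Mean log2 level of the 14 d Sorafenib arrays minus vehicle (x axis) and of the 83 d Sorafenib arrays minus vehicle (y axis) for all 26512 probes. The rule itself holds the 74 chosen probes (red) near the line of equal differences and at -0.5 or below on both axes. They run to below -1.5 on both axes, and both axes use the same 3 vehicle arrays.

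In vehicle livers most of the 74 probes were brighter than most probes of the array. A vehicle level under 8 was found for 11 of the 74, against 21170 of the 26512 probes. Some of the 74 may belong to the same gene, which could not be checked without gene names. All 74 were among the 13256 brighter probes, those above the median probe. Their mean levels had a median of 7.89 in 14 d Sorafenib livers, 7.97 in long-term livers and 8.85 in vehicle livers, while the median over all probes was 6.84 and the upper quartile 7.61. In vehicle livers 45 had a mean level under 9, 13 lay between 9 and 10 and 16 lay over 10, up to 13.20. With Sorafenib, 20 of the 74 had both group means under the upper quartile of all probes, and 14 of these were under it in each of the 8 Sorafenib arrays. Background that remains in the intensities can make the difference of such dim probes smaller than that of their transcripts, which was not tested.

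The differences from vehicle were mostly under 2-fold. Over the 74 probes the 14 d mean lay below the vehicle mean by a median difference of -0.89, with quartiles of -1.13 and -0.66. The long-term mean lay below it by a median difference of -0.78, with quartiles of -1.00 and -0.64. Over all probes the medians were 0.00 in both comparisons. At 14 d 27 of the 74 were 2-fold or more below vehicle, in the long-term livers 20 were, and 17 were so at both times, whereas 44 were at neither. These values describe what the choice of probes fixed and are not tested. For reference, 67 of the 74 were called lower at 14 d (limma, adjusted p under 0.05), where 0.886% of all probes were, and 70 of the 74 were called lower in the long-term livers, where 1.3% of all probes were. When the model also held a chip term, 3 of the 74 were called lower at 14 d, where 0.0189% of all probes were, against 71 in the long-term livers, where 1.44% were. The rule used both contrasts, so nothing is read from these counts.

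The differences varied with the level in vehicle livers, which enters both the classes given here and the differences, so they are a description of what the rule used. The 11 probes with a vehicle level under 8 had median differences of -0.62 at 14 d and -0.61 in the long-term livers, and none was 2-fold lower at both times. The 34 probes with a vehicle level of 8 to 9 had medians of -0.89 and -0.76, and 3 of them were 2-fold lower at both times. The 13 probes between 9 and 10 had medians of -1.20 and -1.00, and the 16 over 10 had medians of -1.09 and -0.90. In each of these last groups 7 probes were 2-fold or more lower at both times. The medians were thus widest between 9 and 10 and smaller again over 10. A dim probe has less room to go down on this scale before it meets the background, so its value need not hold for the transcript itself. Whether this made the differences under 9 smaller was not tested.

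Within the limit of 0.4, which group was the lower one differed with the 14 d livers that the long-term mean was set against. The shared chip held only 1 of these, replicate 4, so the chip and that liver cannot be told apart. Over all 14 d livers, the long-term mean was the higher one in 49 of the 74 probes (66.2%, against 46.7% of the brighter probes), with a median difference of 0.08 and a range of -0.38 to 0.36. Set against the 14 d livers of the second chip, it was higher in 51, with a median difference of 0.09. Set against 14 d replicate 4, which shared the chip of the long-term livers, it was higher in 33 (44.6%, against 47.3% of the brighter probes) and lower in 41, with a median difference of -0.03. No direction between the treatment times is therefore read from these probes. In 27 probes the Sorafenib means were within 0.1 of each other, and in 8 they were 0.3 or more apart. The margin between the lowest vehicle array and the highest Sorafenib array was 0.28 at the median and 0.01 at its smallest. It was under 0.1 in 16 probes, over 0.5 in 11 and over 1 in 1 probe.

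The probe with that margin was ILMN_1257574, which had the largest difference from vehicle of the set. Its intensity was 128, 134, 150 and 138 in the 14 d livers and 107, 111, 118 and 120 in the long-term livers, against 525, 663 and 369 in the vehicle livers. Every treated liver read 150 or less, not far from the median probe of the array with its intensity of 98.2, while the vehicle livers differed among themselves by more than the treated ones. On the log2 scale the levels were 7.26 ± 0.08 (SD, n = 4) at 14 d and 7.02 ± 0.07 (SD, n = 4) in the long-term livers, against 9.02 ± 0.40 (SD, n = 3) with vehicle. The differences from vehicle were -1.76 and -2.00, and the lowest vehicle liver lay 1.23 above the highest treated liver. The 14 d liver on the shared chip, at 7.26, lay within the 7.18 to 7.37 of the 14 d livers measured on the second chip.

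ILMN_2693895 had the next largest difference and a wider spread. Its intensity was 164, 324, 308 and 231 in the 14 d livers and 321, 262, 187 and 296 in the long-term livers, against 612, 778 and 1350 in the vehicle livers. Treated and vehicle livers did not overlap, as the rule required. Both treated groups covered nearly the same range, and the rule had also required their means to lie close together. Its log2 level was 8.05 ± 0.41 (SD, n = 4) at 14 d and 8.12 ± 0.32 (SD, n = 4) in the long-term livers, against 9.78 ± 0.59 (SD, n = 3) with vehicle. The differences from vehicle were -1.73 and -1.66, and the margin between the groups was 0.88. Unlike ILMN_1257574, it stayed above the upper quartile of all probes in 7 of the 8 treated livers and its SD was larger in each group.

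**Figure D2:**
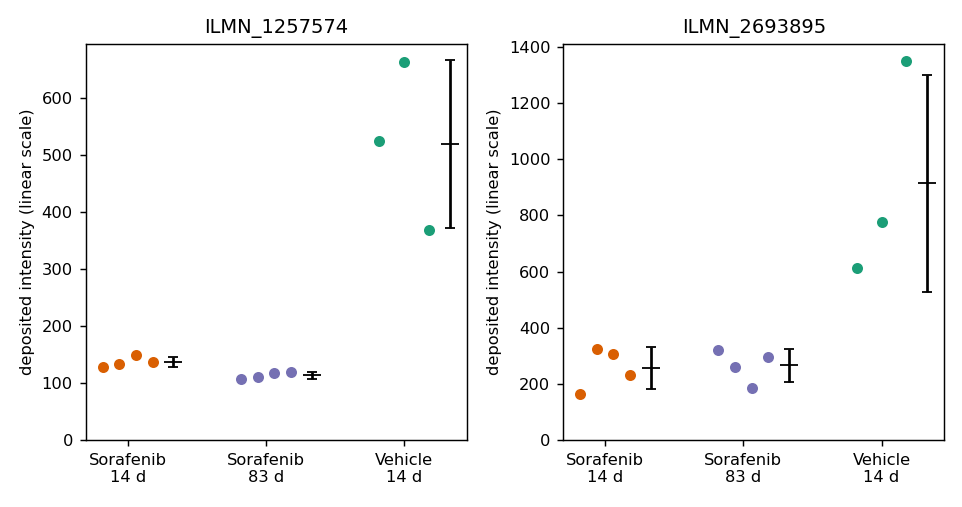
Deposited intensity on a linear scale (y axis, from 0) of ILMN_1257574 and ILMN_2693895 in each array of the Sorafenib 14 d, Sorafenib 83 d and vehicle groups. Points are arrays in replicate order, and the bar beside them is the mean with its SD. The treated livers lie between 107 and 150 for the first probe and between 164 and 324 for the second, below every vehicle liver.

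The treated livers were not equally low across the set. The median difference of the 74 probes from the vehicle mean was -1.00, -0.86, -0.94 and -0.75 in 14 d replicates 1 to 4. It was -0.61, -0.81, -0.91 and -0.81 in long-term replicates 1 to 4, and -0.05, 0.03 and 0.02 in vehicle replicates 1 to 3. Long-term replicate 1 thus lay closest to vehicle of the treated livers and 14 d replicate 1 farthest from it. In long-term replicate 1, 52 of the 74 probes were 0.5 or more below the vehicle mean and 6 were 1 or more below it. In the other 7 treated livers 65 to 69 were 0.5 or more below and 18 to 38 were 1 or more below. The medians over the brighter probes of the array lay between -0.02 and 0.00 in every liver, as quantile normalization brings about.

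**Figure D3:**
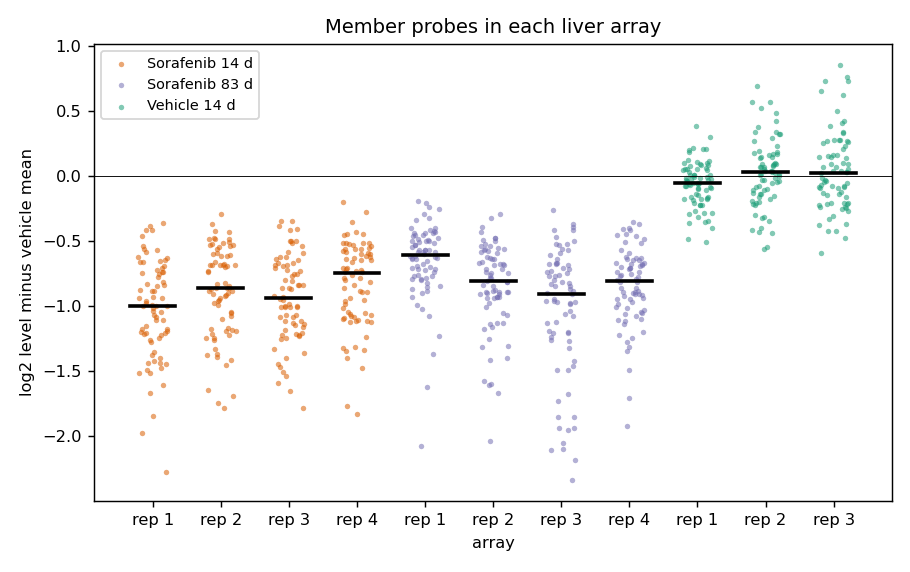
Log2 level minus the vehicle mean (y axis) of the 74 probes in each array (x axis), for Sorafenib 14 d, Sorafenib 83 d and vehicle. Each point is a probe and each bar the median of an array. Long-term replicate 1 has the median nearest to 0 of the treated livers, at -0.61, and 14 d replicate 1 the lowest, at -1.00.

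The order of livers within a treated group was not used for the choice, and it was shared by many of the 74 probes. Among the 4 long-term livers, replicate 1 was the highest for 44 probes (59.5%), against 24.3% of the brighter probes of the array. Replicate 3 was the lowest for 38 (51.4%), against 27.4% of the brighter probes. Both held for 31 probes (41.9%), against 10.6% of the brighter probes. Replicate 1 exceeded replicate 3 by a median of 0.26 over the 74 probes, where the median over the brighter probes was -0.01. Other sets differed in this. Over the 231 other probes whose long-term mean lay 0.5 or more below vehicle, replicate 1 was the highest for 18.2%, and its median difference from vehicle was -0.71, against -0.61 to -0.70 in the other long-term livers. In the 23 probes of the mirrored rule, which were higher with Sorafenib, long-term replicate 1 was the highest long-term liver for 43.5%, so a larger share than in the brighter probes was found there too. It lay above vehicle by a median of 0.81, against 0.82 to 0.97 in the other long-term livers. None of these shares or differences between sets was tested, because probes of a liver are not replicates, and many of the brighter probes lie near the background, where arrays differ little.

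A smaller group of 10 probes carried the widest part of this spread. In these, picked after their values were seen, long-term replicate 1 exceeded replicate 3 by 1 or more, up to 1.93. They are 13.5% of the 74, against 0.626% of the brighter probes, of which 83 showed such a difference. In none of the 74 was replicate 3 higher than replicate 1 by as much, although 34 of the brighter probes were. The median differences of these 10 from vehicle were -0.49, -0.84, -1.94 and -1.02 in long-term replicates 1 to 4. Their median difference at 14 d was -1.25. Their median SD was 0.25 at 14 d, 0.63 in the long-term livers and 0.17 with vehicle, and the pick by a wide long-term difference fixed the long-term value to be large. Their vehicle levels had a median of 10.26 and ran from 8.84 to 11.78, and 7 of them were among the 20 with the largest differences of the set.

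**Figure D4:**
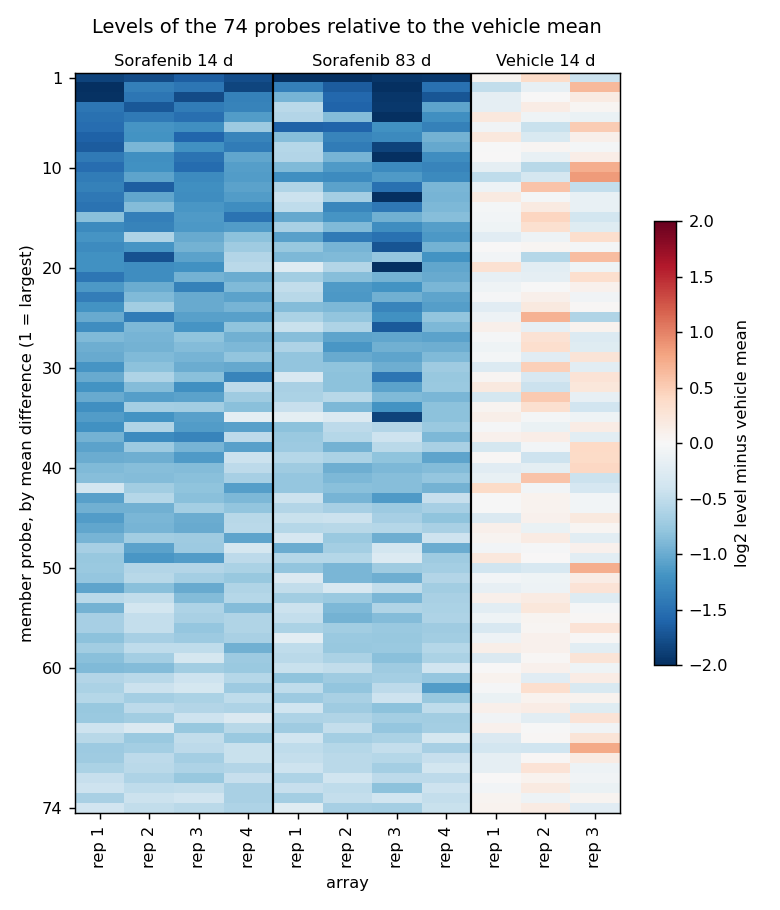
Log2 level minus the vehicle mean (colour, from -2 to 2, values beyond these drawn at the limit) of the 74 probes (y axis, from the largest mean difference at the top) in each array (x axis), with Sorafenib 14 d, Sorafenib 83 d and vehicle from left to right. Every treated array is blue. In many of the upper rows, though not in the top row, long-term replicate 3 is darker than long-term replicate 1.

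The deviations of the livers from their group means fell largely along a pair of directions. Over the 74 probes, the first principal component of these deviations held 39.3% of their variance and set long-term replicate 3, with a loading of 0.74, against long-term replicate 1, with -0.58. The second held 26.8% and set vehicle replicate 3, with 0.74, against vehicle replicate 2, with -0.56. In 12 of the 74 probes vehicle replicate 3 exceeded vehicle replicate 2 by 0.5 or more, and in another 12 the reverse held. The SD between arrays had a median of 0.20 at 14 d and 0.19 in the long-term livers, against 0.23 with vehicle. The medians over the brighter probes were 0.11 and 0.10, against 0.10 with vehicle. The median SD of the 74 was thus above that of the brighter probes in each group, vehicle included. The brighter probes were not matched to the 74 in level, and many lie near the background, where arrays differ little.

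The chip on which a liver was measured differed within the 14 d group only, a contrast that the rule did not use. Of the 74 probes, 0 passed the threshold for a chip term in the model (limma, adjusted p under 0.05; the lowest adjusted p was 0.615), against 0.00377% of all probes, which is 1 probe. At an unadjusted p under 0.05, 13 of the 74 (17.6%) differed between the chips, against 6.51% of all probes and 8.51% of the brighter ones. Of these 13, 11 were lower on the second chip and 2 higher. The chip term was negative, that is lower on the second chip, in 49 of the 74, with a median of -0.09, and it ranged from -0.93 to 0.49. Among the brighter probes it was negative in 49.5%, with a median of 0. The median standard error of the term was 0.21, so only large shifts could pass. The median difference of the 74 from vehicle was -0.93 for the 14 d replicates of the second chip and -0.75 for 14 d replicate 4, which shared the chip of the vehicle livers. The term rests on 14 d replicate 4 alone, so the chip and that liver cannot be told apart. With the chip as a term, the calls of lower probes at 14 d went down over the whole array, to 5 of 26512, against 235 without it, and 3 of these 5 were among the 74. Within the shared chip, where the lone 14 d liver was assumed to vary like the others, 2 probes were called lower (0.00754%), 1 of them among the 74. The long-term livers had the same chip as vehicle, and within it 299 probes were called lower (1.13%), 69 of them among the 74. The rule used both contrasts with vehicle, so nothing is read from the calls of lower probes among the 74.

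Because the probes were chosen by these arrays, their separation in the same arrays carries no independent support. The rule was therefore applied without 1 Sorafenib and 1 vehicle array at a time, in all 24 ways, and the levels of the left-out arrays were then compared at the probes chosen without them. Between 81 and 161 probes were chosen each time, 54 to 68 of them among the 74. In 23 of the 24 pairs the left-out Sorafenib liver was lower at most of the chosen probes, with median differences of -0.78 to -0.37 and 76.4% to 96.8% of probes lower. Over the brighter probes the medians of the same pairs were -0.02 to 0.01 and 47.5% to 54.3% were lower. Pooled over the pairs, with a probe counted in each pair that chose it, 51.8% were 0.5 or more lower in the left-out Sorafenib liver. Of the brighter probes 4.04% were, but these are not a matched baseline. Their median SD within groups was 0.10 to 0.11, against 0.19 to 0.23 for the 74, so fewer of them could differ by 0.5. The 24 pairs reuse the same arrays and are not independent, and no test was made on them.

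The left-out livers differed in how far they followed the choice. The 9 pairs with a 14 d liver of the second chip had medians of -0.78 to -0.52. The 12 pairs with a long-term liver had medians of -0.66 to -0.37, and those with long-term replicate 1 were all between -0.40 and -0.37. 14 d replicate 4 had a median difference of -0.43 from vehicle replicate 1 and of -0.59 from vehicle replicate 3. Against vehicle replicate 2 its median difference was 0.00, and 80 of 161 chosen probes (49.7%) were lower, near the 48.4% of the brighter probes, although 31.1% were 0.5 or more lower, against 3.64% of the brighter probes. This was the pair with the most probes chosen, 161, against 81 to 140 in the others. At the probes chosen without them, these 2 livers of the same chip thus had no difference at the median. The other 7 treated livers had median differences of -0.69 to -0.38 from vehicle replicate 2, each at its own set of chosen probes. In the 74 probes this pair is separated by construction.

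**Figure D5:**
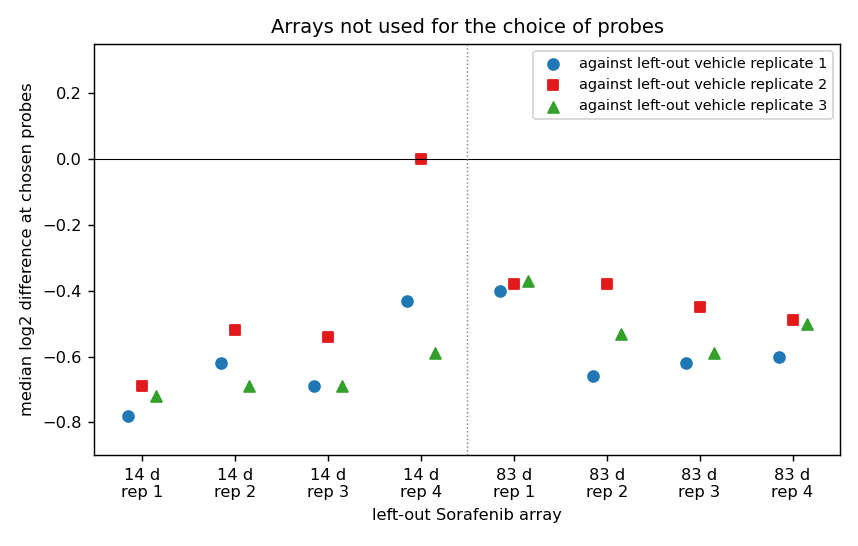
Median log2 difference (y axis) of a left-out Sorafenib array (x axis; 14 d left of the dotted line, 83 d right of it) minus a left-out vehicle array (marker), over the probes that the rule chose from the other 9 arrays. The medians lie between -0.78 and -0.37 except for 14 d replicate 4 against vehicle replicate 2, at 0.00.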

How the data were processed

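Intensities were deposited by the authors as 1 value for each of 26512 probes on 11 1-colour Illumina bead arrays. As judged from the values, they are on a linear scale, brought close to a common distribution and not reduced to a background of 0. Software, background correction and array normalization are not given in the sources used here. Array medians were 98.7 to 99.9, and the number of arrays limits the precision. The submitters' source labels gave the groups, and their descriptions the chip. An offset of 16 was added, log2 taken and the arrays quantile normalized. Comparisons across all probes used limma 3.58.1 in R 4.3.3 (lmFit on all arrays in 3 groups, eBayes with an intensity trend, two-sided, Benjamini-Hochberg over all probes). The scripts were tested on simulated data. Figures used matplotlib 3.10.9. The members and lists were chosen with earlier results of these data known. Probes to be named were the 2 with the largest mean fall, since no gene names were at hand. Cell type and pathway lists and promoter motifs, which need gene names, were not analysed here. Same-numbered replicates showed no pairing: the correlations of their deviations were -0.10 to 0.12, with 1 of 10 over 0.1. Alternatives were no quantile normalization, median centring, offsets of 1 and 50, brighter probes only, other limits of the rule, no trend, arrayWeights, the chip as a term, as a random block or restricted to the shared one, fewer groups, a replicate block and leaving out arrays. Leaving out a Sorafenib and a vehicle array together was added after the data were seen.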

Additional observations from a re-analysis of the deposited data

How the results depend on the processing

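The rule kept 62 to 84 probes under no quantile normalization, median centring, offsets of 1 and 50, the shared chip alone and no limit between the Sorafenib means. Restriction to the brighter probes leaves the 74 unchanged by construction, because all of them are brighter probes. The shared chip alone gave 75, of which 60 were among the 74. With differences of 1 in place of 0.5 it kept 17. Leaving out 1 array gave 65 (without long-term replicate 3) to 126 (without vehicle replicate 2), with 61 to 71 of the 74 among them. The number of the 74 called lower at 14 d, 67 (235 over all probes), was 44 without an intensity trend (142) and 55 to 69 without 1 array (166 to 292 over all probes). With the chip as a fixed term, or within the shared chip, the 14 d difference rests on replicate 4 alone. Both settings lowered the 14 d calls more than any other alternative, in the 74 and over all probes, as given above. In the long-term livers, 70 (345 over all probes) became 49 without an intensity trend (309) and 53 to 71 without 1 array (209 to 384). It became 71 with the chip as a fixed term (383) and 69 within the shared chip (299). The chip term called 0 of the 74 under each alternative in which it was fitted, namely the scalings, offsets, brighter probes, no trend, arrayWeights, the replicate block and leaving out any array but 14 d replicate 4, without which the second chip and the 14 d group are the same arrays. With the replicate block the counts were 65 at 14 d (249 over all probes), 69 long-term (342) and 0 for the chip term (3). The log2 differences of ILMN_1257574 ranged from -1.98 to -1.57 at 14 d and from -2.21 to -1.76 long-term, those of ILMN_2693895 from -1.98 to -1.41 and from -1.91 to -1.34.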

Other observations

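Of single arrays far from the rest of their group, Dixon's test marked 0 of 6 sets of values (the named probes and the medians of the 74 probes, in each treated group). Over the 74 probes it marked 4 in the 14 d group (5.41%, against 5.45% of the brighter probes) and 3 in the long-term group (4.05%, against 5.58%). Chance marks about 5% of such sets. All 4 at 14 d were high in replicate 4. Of the 3 in the long-term group, 2 were high in replicate 1 and 1 was low in replicate 4.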
